A study of Homo sapiens with 2 samples.

Results

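Chromosome 13 genes were followed in their order along the chromosome in IGR37 and IGR39, cell lines from human melanoma. The set is a list of 43 genes, of which 41 had a probe set named to them alone and were measured, among 401 measured chromosome 13 genes and 19775 measured genes in all. BRCA2 and PHF11 were not analysed here. Where a gene had several probe sets, its value came from the one brightest on average. The list was drawn up with the differences between these arrays in view, so the differences of its genes are given as a description, and the list has no threshold of its own.

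IGR37 was grown from a lymph node metastasis of melanoma, and IGR39 from a primary cutaneous melanoma described as achromic. Both were untreated, were grown in DMEM with fetal bovine serum, and gave total RNA to 1 Affymetrix U133 Plus 2.0 array each, a chip that reads a transcript through sets of short probes. The values are log2 levels, so a difference of 1 is 2-fold, and every difference is IGR37 minus IGR39. Neither line has a replicate, so no test was run: a difference compares these arrays, and the spread between cultures is unknown.

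Chromosome 13 is an acrocentric chromosome whose protein-coding genes lie on its long arm. It is best known in cancer for RB1, the retinoblastoma gene, whose protein binds E2F transcription factors and restrains entry into DNA replication. Genes that are neighbours on it serve unrelated tasks, from chromatin and ribosomal RNA synthesis to ubiquitin pathways, so the list groups genes by place and not by function. DNA copy number was not analysed here.

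Promoters are shown for the 5 genes of the list with the largest positive differences among those with a listed start and, for contrast, for the gene with a listed start and the lowest difference, AKAP11. Each runs from 250 bases before to 50 after the gene's start, 5′ to 3′ on the gene's own strand, from RefSeq on GRCh38.p14. Capitals mark exact matches on either strand to 7 motifs chosen after the values were seen. These were the GC box (GGGCGG), the CCAAT box (CCAAT), the TATA box (TATAAA), the E-box (CACGTG), an ETS site (CCGGAAG), an E2F site (TTTCGCGC or TTTGGCGC) and an NRF1 site, searched as its palindromic consensus.
SETDB2 (chr13:49444024-49444323, plus strand): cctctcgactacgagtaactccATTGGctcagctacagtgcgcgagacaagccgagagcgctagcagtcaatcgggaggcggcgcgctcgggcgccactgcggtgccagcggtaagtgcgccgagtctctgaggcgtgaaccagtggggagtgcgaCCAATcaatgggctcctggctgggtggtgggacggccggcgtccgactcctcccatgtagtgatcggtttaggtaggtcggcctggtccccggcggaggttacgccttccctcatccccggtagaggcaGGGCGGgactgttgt
UBL3 (chr13:29850568-29850867, minus strand): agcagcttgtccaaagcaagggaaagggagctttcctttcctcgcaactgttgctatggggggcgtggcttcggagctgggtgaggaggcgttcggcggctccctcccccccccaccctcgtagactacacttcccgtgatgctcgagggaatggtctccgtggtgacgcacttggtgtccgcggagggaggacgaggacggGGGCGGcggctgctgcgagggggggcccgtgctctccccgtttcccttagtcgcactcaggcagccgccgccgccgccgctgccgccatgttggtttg
IPO5 (chr13:97953425-97953724, plus strand): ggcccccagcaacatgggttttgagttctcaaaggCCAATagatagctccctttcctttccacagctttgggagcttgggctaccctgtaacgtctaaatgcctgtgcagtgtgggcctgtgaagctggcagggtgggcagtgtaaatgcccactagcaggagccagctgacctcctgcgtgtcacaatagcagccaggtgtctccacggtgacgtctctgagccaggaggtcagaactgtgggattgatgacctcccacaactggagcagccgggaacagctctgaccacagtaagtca
MIPEP (chr13:23889351-23889650, minus strand): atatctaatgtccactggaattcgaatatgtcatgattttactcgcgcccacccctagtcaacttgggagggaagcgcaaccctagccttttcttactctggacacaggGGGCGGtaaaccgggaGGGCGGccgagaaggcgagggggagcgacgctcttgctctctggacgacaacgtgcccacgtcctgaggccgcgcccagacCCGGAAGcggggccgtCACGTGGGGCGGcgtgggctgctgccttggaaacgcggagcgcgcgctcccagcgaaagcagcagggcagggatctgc
TFDP1 (chr13:113584503-113584802, plus strand): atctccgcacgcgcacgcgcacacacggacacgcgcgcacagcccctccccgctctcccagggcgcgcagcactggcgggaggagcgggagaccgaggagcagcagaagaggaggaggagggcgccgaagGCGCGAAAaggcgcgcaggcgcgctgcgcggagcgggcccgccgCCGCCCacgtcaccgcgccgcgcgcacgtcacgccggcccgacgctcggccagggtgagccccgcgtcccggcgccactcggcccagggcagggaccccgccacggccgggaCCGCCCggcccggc
AKAP11 (chr13:42271902-42272201, plus strand): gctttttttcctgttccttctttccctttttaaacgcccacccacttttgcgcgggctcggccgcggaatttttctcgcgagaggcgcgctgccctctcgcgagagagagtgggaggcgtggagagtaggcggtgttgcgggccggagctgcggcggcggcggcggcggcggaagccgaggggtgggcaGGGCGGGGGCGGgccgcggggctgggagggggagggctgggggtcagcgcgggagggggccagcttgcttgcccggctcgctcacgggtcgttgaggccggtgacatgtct

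No single motif was found in all of the 6 windows, and no marked matches overlap, although some abut. The SETDB2 promoter holds 2 CCAAT boxes and 1 GC box, the UBL3 promoter 1 GC box, and the IPO5 promoter 1 CCAAT box. MIPEP has 3 GC boxes, 1 ETS site and 1 E-box, which abuts a GC box. TFDP1 has 2 GC boxes and 1 E2F site, while AKAP11 has 2 GC boxes. The IPO5 window is also poor in CG dinucleotides, with 5, against 27 to 52 in the other 5 windows. Promoters were listed for 37 of the 43 genes, 55 windows in all. The only window listed for RB1 begins within the gene, and it is counted here although it holds none of the motifs. A GC box lay in 35 of the 55 windows (63.6%), against 45.0% of all 35116 promoters of the same length. The CCAAT box lay in 38.2% of the windows and 34.6% of all promoters, the ETS site in 14.5% and 10.3%, and the E-box in 9.09% and 7.26%. For the TATA box the shares were 9.09% and 11.5%, for the E2F site 1.82% and 1.15% and for the NRF1 site 1.82% and 1.24%. The single E2F site among the 55 windows is the one in TFDP1, whose protein is a partner of E2F factors. The windows of the list had a median GC content of 66.0%, and all promoters 58.7%. A match describes letters in a window and says nothing about binding.

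The arrays were alike in overall range. Each held 54675 probe sets, of which 24.3% in IGR37 and 23.9% in IGR39 reached log2 6, the minimum used below for a gene's brighter array. As yardsticks, differences of the 18 hybridisation spike-in probe sets ran from -0.14 to 0.21 (SD 0.08). Probe sets of the same gene differed with a pooled SD of 0.40 over 3178 genes. Neither yardstick measures the spread between cultures of a line. Of the melanocyte markers, 7 of 7 measured reached log2 6 in IGR37 and 1 of 7 in IGR39, where MITF stood at 7.57 and the other 6 below log2 6. DCT was not analysed here. None of 4 measured lymphocyte and macrophage markers reached log2 6, the highest being 4.33 in IGR37 and 4.19 in IGR39, nor did any of 3 endothelial or 3 keratinocyte markers. Of 5 fibroblast markers, 3 reached it in IGR37 (FAP, LUM and COL1A1) and 1 in IGR39 (FAP). FAP stood at 6.83 in IGR37 and 8.85 in IGR39, and LUM at 6.26 and 3.41. Their part in the differences below was not tested.

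Most of the list was higher in IGR37. Of the 41 measured genes, 37 had a difference above 0, against 50.3% of all 19775 genes, and the median difference was 0.70 (lower quartile 0.36, upper quartile 0.95). At least 2-fold higher were 9 of the 41, against 5.8% of all genes, and 0 were at least 2-fold lower. The 34 genes that reached log2 6 in the brighter array can owe their place to the line in which they are high. Of these, 31 were above 0 (54.5% of all 8501 genes at this level), 7 were at least 2-fold higher (background 11.4%) and 0 were at least 2-fold lower (background 9.5%), with a median of 0.70. The median over all 8501 genes was 0.07. In 31 of the 34, both arrays reached log2 6, and 28 of those were above 0, against 55.1% of all 6931 genes at that level in both arrays. Since the list was chosen with this contrast known, these shares are set side by side and nothing further is read from them. Cells of a bulk culture are read together, so a change in every cell and a change in a share of the cells cannot be told apart.

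**Figure D1:**
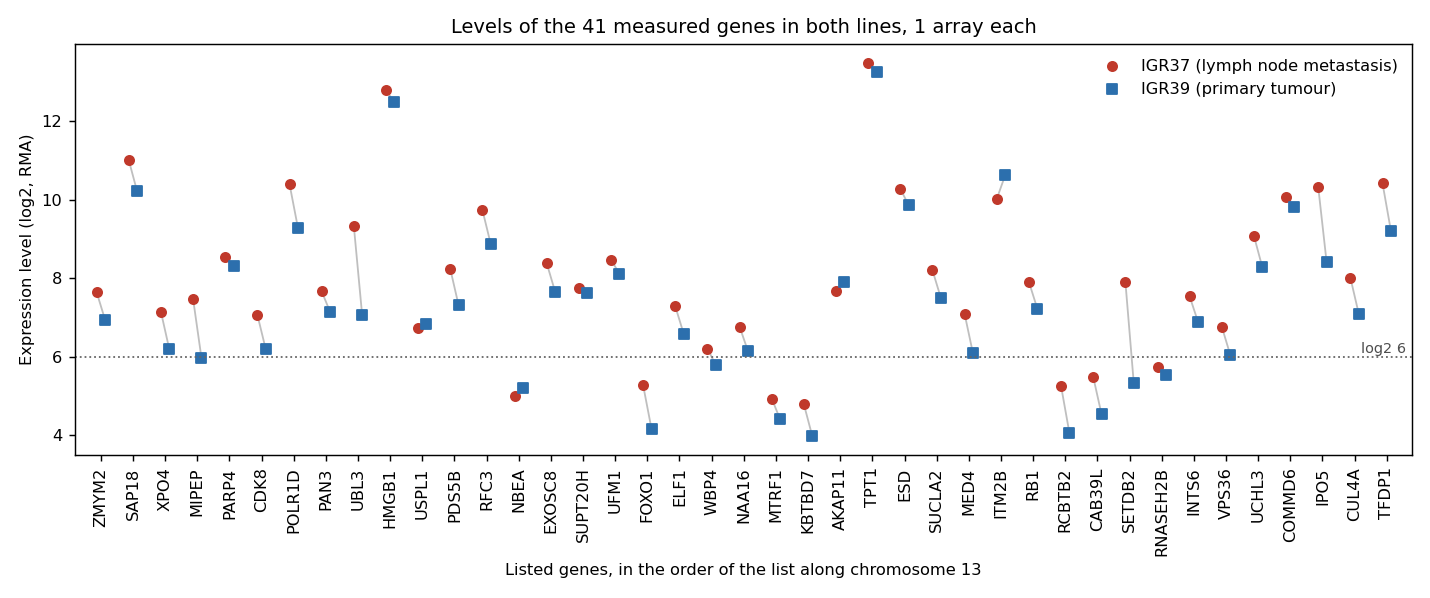
Expression level (log2, RMA) of the 41 measured genes of the list, in list order along chromosome 13, with 1 array per line: circles are IGR37 and squares IGR39, joined for each gene, and the dotted line marks log2 6. The circle lies above the square in 37 genes, and USPL1, NBEA, AKAP11 and ITM2B are the 4 in which it lies below.

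The genes of transcription and chromatin made up the largest group, with 11 of 13 listed at or above log2 6. All 11 were above 0, with a median of 0.80, and 3 were at least 2-fold higher, where all genes at this level had 54.5% above 0 and 11.4% at least 2-fold higher. The same shares stand behind the counts of each role below. SETDB2, a methyltransferase for lysine 9 of histone H3, stood at 7.91 in IGR37 and 5.34 in IGR39. The difference was 2.57, and since IGR39 lay below log2 6 its size is less certain than for genes bright in both lines. Its other probe set at this level was at 6.65 and 4.17, a difference of 2.48. TFDP1, which encodes DP1, the dimerisation partner of E2F factors, stood at 10.42 in IGR37 and 9.21 in IGR39. Its 3 probe sets differed by 0.81 to 1.78, all in 1 direction.

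Mediator, the complex that carries signals from transcription factors to RNA polymerase II, has 2 subunits in the list. MED4, of its middle module, stood at 7.09 in IGR37 and 6.08 in IGR39, which at 1.004 is just past the 2-fold limit. Its dimmer probe set was near background in both lines and differed by 0.12. CDK8, the kinase of the Mediator kinase module, stood at 7.07 and 6.19, a difference of 0.87, and the next probe set gave 0.77. Both subunits were higher in IGR37 by similar amounts, and CDK8 lies on the other side of the limit.

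RB1 itself was at 7.91 in IGR37 and 7.23 in IGR39, a difference of 0.68 or 1.60-fold. Its other probe set was near background, at 4.91 and 4.83. ELF1, an ETS family transcription factor, was at 7.28 and 6.59, and its probe sets differed by 0.70 and 0.74. SAP18, a subunit shared by the SIN3 corepressor and a splicing-related complex, was at 11.01 and 10.22. The differences of RB1, ELF1 and SAP18 all lay between 0.68 and 0.80, close to the median of the list.

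For some chromatin genes the difference depended on the probe set. ZMYM2, a zinc finger protein of the LSD1 corepressor complex, was at 7.64 in IGR37 and 6.95 in IGR39. Its other probe set at this level differed by -0.14, and the mean over its 7 probe sets was 0.07. PDS5B, which regulates cohesin on chromosomes, was at 8.24 and 7.31, a difference of 0.93. Its bright probe set ends in _x_at, the suffix for probes that can bind other transcripts, its 5 further probe sets were all near background, and the mean over all 6 was 0.13.

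The chromatin gene with the brightest signal differed little. HMGB1, an abundant DNA-bending protein, was at 12.80 in IGR37 and 12.49 in IGR39, a difference of 0.31. Its 5 probe sets differed by 0.31 to 0.62. HMGB1 has processed pseudogenes, so its _x_at probe sets can read related sequences. SUPT20H, a subunit of the SAGA coactivator, was at 7.75 and 7.64, and its 3 probe sets at this level ranged from -0.02 to 0.32, so no direction holds for it. A further probe set that names SUPT20H together with the muscle gene DES stood at 6.83 and 7.11.

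FOXO1, a transcription factor restrained by insulin and AKT signalling, did not reach log2 6. It was at 5.27 in IGR37 and 4.16 in IGR39, a difference of 1.11, and its next probe set differed by 1.39. Neither probe set reached log2 6 in either line.

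Genes of RNA synthesis, processing and decay were all above 0, 5 of 5, with a median of 0.65. POLR1D, a subunit shared by RNA polymerases I and III, was at 10.40 in IGR37 and 9.29 in IGR39. Its 3 probe sets differed by 1.11, 1.15 and 1.39, so all of them passed 2-fold. The other 4 genes lay within 2-fold.

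EXOSC8, a core subunit of the RNA exosome, was at 8.38 in IGR37 and 7.66 in IGR39. INTS6, a subunit of the Integrator complex that processes small nuclear RNA, was at 7.54 and 6.89. PAN3, the regulatory subunit of a deadenylase that shortens poly(A) tails, was at 7.67 and 7.15. These 3 differed by 0.72, 0.65 and 0.52. WBP4, a spliceosome protein, was at 6.21 and 5.78, but its other probe set at this level differed by -0.83 and the mean over its 3 was -0.07, so its direction depends on the probe set.

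Ubiquitin and ubiquitin-like pathways had 6 of 7 listed genes at this level, 5 of them above 0, with a median of 0.58. UBL3, a membrane-anchored ubiquitin-like protein, stood at 9.33 in IGR37 and 7.05 in IGR39. Its probe sets differed by 2.28 and 2.29, or 4.85-fold for the brighter, and both arrays lay above log2 6. UBL3 had the largest difference among genes of the list with both arrays at this level.

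CUL4A, the scaffold of a ubiquitin ligase that works with DDB1, was at 8.01 in IGR37 and 7.09 in IGR39. Its 3 probe sets at this level differed by 0.74 to 0.92. UCHL3, a ubiquitin C-terminal hydrolase, was at 9.08 and 8.28, a difference of 0.80. Their differences lay above the median of the list and far below that of UBL3.

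UFM1, a small modifier attached to proteins in the manner of ubiquitin, was at 8.48 in IGR37 and 8.12 in IGR39, and its 2 probe sets at this level each differed by 0.36. COMMD6, of a family that binds the endosomal sorting machinery, was at 10.08 and 9.83. USPL1, a protease that removes the modifier SUMO, was at 6.74 and 6.84. Its difference of -0.11 is within the range of the spike-ins. KBTBD7, a substrate adaptor for CUL3 ligases, was below log2 6 in both lines, at 4.78 and 3.98.

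In nuclear transport and membrane traffic, 4 of 5 listed genes reached log2 6 and 3 were above 0. IPO5, an importin that carries proteins such as ribosomal proteins into the nucleus, stood at 10.32 in IGR37 and 8.41 in IGR39. Its 4 probe sets at this level differed by 1.04 to 2.17, the brightest by 1.91 or 3.76-fold. Both lines were well above log2 6 on its 3 brightest probe sets.

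XPO4, an exportin for proteins such as the translation factor eIF5A, was at 7.14 in IGR37 and 6.19 in IGR39, a difference of 0.95. Its other probe set was at 7.14 and 4.17, a difference of 2.97, so the size of the difference depends on the probe set. VPS36, a subunit of the ESCRT-II complex of endosomal sorting, was at 6.77 and 6.05. AKAP11, an anchor for protein kinase A, went the other way at 7.68 and 7.91, a difference of -0.23. NBEA, a large protein of membrane traffic in neurons, was below log2 6 at 5.001 in IGR37 and 5.19 in IGR39.

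Mitochondrial proteins were represented by MIPEP, SUCLA2 and MTRF1. MIPEP, a peptidase that trims imported mitochondrial proteins, stood at 7.47 in IGR37 and 5.97 in IGR39. The difference was 1.50, with 1.31 on its other probe set, and IGR39 lay just under log2 6. SUCLA2, a subunit of succinyl-CoA synthetase in the citric acid cycle, was at 8.20 and 7.50, a difference of 0.70. MTRF1, a mitochondrial release factor, lay below log2 6 in both lines, at 4.93 and 4.40.

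Among DNA replication and repair genes, RFC3, a subunit of the clamp loader that places PCNA on DNA, was at 9.74 in IGR37 and 8.87 in IGR39. Its 2 probe sets at this level differed by 0.87 and 1.26. PARP4, a poly(ADP-ribose) polymerase of vault particles grouped here, was at 8.54 and 8.30, close to the widest spike-in difference. RNASEH2B, a subunit of ribonuclease H2, stayed below log2 6 at 5.74 and 5.54.

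The remaining genes held the clearest exception. ITM2B, a transmembrane protein processed by furin, was at 10.03 in IGR37 and 10.63 in IGR39. Its 2 probe sets differed by -0.60 and -1.20, so it was lower in IGR37 on both, and past 2-fold on the dimmer. On the chromosome it stands between MED4 and RB1, which were higher in IGR37 by 1.004 and 0.68.

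TPT1, an abundant tumour protein that binds tubulin and calcium, had the brightest signal of the list, at 13.50 in IGR37 and 13.26 in IGR39. Its 5 probe sets differed by 0.15 to 0.26, and it too has pseudogenes that its _x_at probe sets may read. ESD, an esterase that clears formaldehyde conjugates, was at 10.29 and 9.86. NAA16, an auxiliary subunit of an N-terminal acetyltransferase, was at 6.76 and 6.14.

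RCBTB2 and CAB39L stayed below log2 6. RCBTB2 was at 5.25 in IGR37 and 4.05 in IGR39, and CAB39L, a scaffold of the kinase LKB1, at 5.48 and 4.53. Their differences were 1.20 and 0.96. The 7 measured genes below the minimum had a median difference of 0.81, with 6 of 7 above 0. No share over all genes below the minimum stands beside this count.

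Further probe sets of the same genes were read on the same arrays. The 41 genes had 123 probe sets. Of the 65 at or above log2 6, 58 were above 0, with a median of 0.70. The 31 of these that were not used for a gene value had a median of 0.74, with 27 above 0 and 11 at least 2-fold higher. No share over all probe sets stands beside these counts, and the genes were chosen with this contrast known, so the counts are a description. The 58 dimmer probe sets had a median of 0.21 and a smaller spread (SD 0.43, against 0.78 for the brighter ones). Among 19 genes with more than 1 probe set at this level, all such probe sets were above 0 in 15, all were below 0 in ITM2B, and they lay on both sides in ZMYM2, SUPT20H and WBP4. Probe sets of a gene share the RNA and the array, so they check the probes and not the lines.

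**Figure D2:**
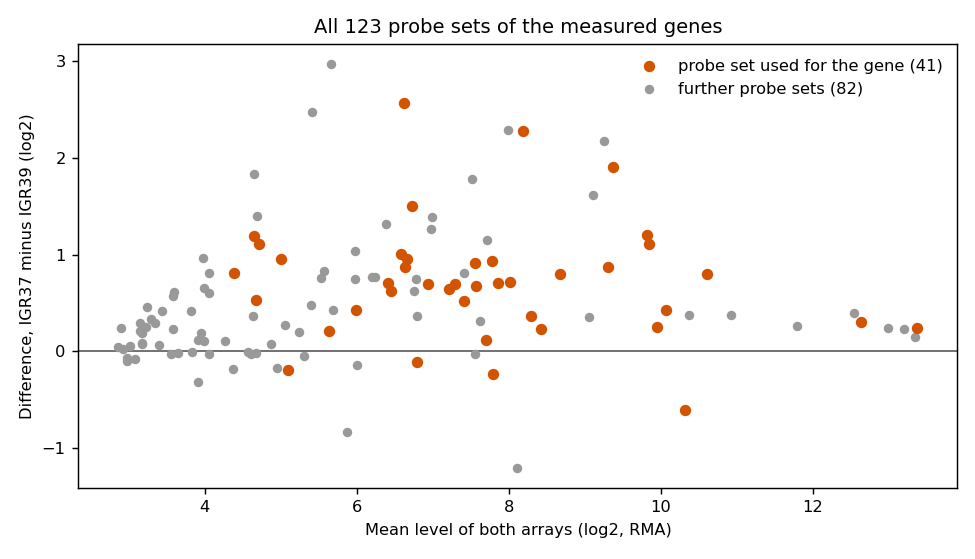
Difference, IGR37 minus IGR39 (log2), of each of the 123 probe sets of the 41 genes against its mean level over both arrays (log2, RMA). Coloured points are the probe sets used for the gene values and grey points the 82 others, and those below log2 6 crowd towards 0 with a median of 0.21.

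The difference was next set beside the mean level of the gene's probe set. Probe sets below log2 6 had a lower median than the brighter ones, at 0.21 against 0.70. Over the 34 genes at or above log2 6, the difference and the mean level correlated weakly (Pearson's r -0.21, Spearman's rho -0.20, across genes that share the 2 arrays). The 5 genes with a mean level of log2 10 or more, SAP18, HMGB1, TPT1, ESD and ITM2B, had a median of 0.31 and 0 at least 2-fold higher. The 10 genes with mean levels from log2 8 to 10 had a median of 0.83, with 4 at least 2-fold higher. The 19 genes below log2 8 had a median of 0.70, with 3 at least 2-fold higher. No share over all genes at these mean levels stands beside these counts, so they are a description. Of the 34 genes, 32 differed by more than the widest spike-in difference and 26 by more than the pooled SD among probe sets of a gene. Since neither yardstick holds the spread between cultures, these counts are a description. The 2 within the spike-in range were USPL1 and SUPT20H.

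The rest of the chromosome was then set beside the list. Besides the list, 122 chromosome 13 genes reached log2 6, with a median difference of 0.65, against 0.70 for the list. Of these, 94 were above 0 (all genes 54.5%). Past 2-fold, 38 were higher in IGR37 (all genes 11.4%) and 8 were lower (all genes 9.5%). Their spread was wider, with an SD of 1.45 against 0.64 for the list. Where both arrays reached log2 6, the SDs were closer, at 0.71 for these other genes and 0.56 for the list. Requiring log2 6 in both arrays left 83 of the 122. Of these 83, 17 were at least 2-fold higher (7.26% of all genes at that level in both arrays) and 2 at least 2-fold lower (5.35%). Their median was 0.47, while the list's median over 31 genes stayed at 0.70. With no minimum, the median of the others was 0.087, and that of the list was again 0.70. These sets differ in level: 34 of the 41 genes of the list reached log2 6, but 156 of all 401 chromosome 13 genes. Most of the others thus lay below log2 6, and the list was chosen with the values in view.

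The widest differences on the chromosome lay outside the list. Higher in IGR37 were EDNRB, the endothelin receptor of melanocytes, at 10.70 in IGR37 and 3.77 in IGR39, and DCLK1, a microtubule-associated kinase, at 9.37 and 4.08. TDRD3, SLAIN1 and MCF2L, with differences of 3.55, 3.44 and 3.44, were next, and TNFRSF19 had nearly the same difference. Lower were EFNB2, a ligand of Eph receptors, at 3.56 and 9.04, and POSTN, a matrix protein, at 3.14 and 7.53. EPSTI1, TSC22D1 and LMO7 followed, with differences of -2.99, -2.02 and -1.94. TSC22D1 reached log2 6 in both lines, while the other 9 passed the minimum only through the line where they were high, so the size and order of their differences are uncertain. Within the list, SETDB2 and UBL3 differed by more than LMO7, the smallest of these 10.

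Medians were alike over 3 broad stretches of the chromosome. Ranked by the gene table, the 156 genes at this level were divided into 3 lots of 52 neighbours. The lot from MPHOSPH8 to PROSER1 had a median of 0.70 (16 genes of the list, median 0.76), the lot from LHFPL6 to KCTD12 one of 0.66 (15 genes, 0.65), and the lot from MYCBP2 to CHAMP1 one of 0.72 (3 genes, 1.21). The median of a window of 15 neighbours stayed above 0 in all 142 windows, from 0.30 around MZT1 to 1.01 around NDFIP2. Adjacent windows share most of their genes, so they are not separate readings. They also hold genes of the list, and genes that passed the minimum in 1 line only. In this order the 156 genes formed 28 runs above 0, the longest of 20 genes from MICU2 to SLC46A3, which holds MIPEP, PARP4, CDK8, POLR1D and PAN3. Runs below 0 numbered 27, and 23 of them were a single gene, with none longer than 2. The list gives 4 neighbouring pairs in another order than the gene table, such as SAP18 and XPO4.

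**Figure D3:**
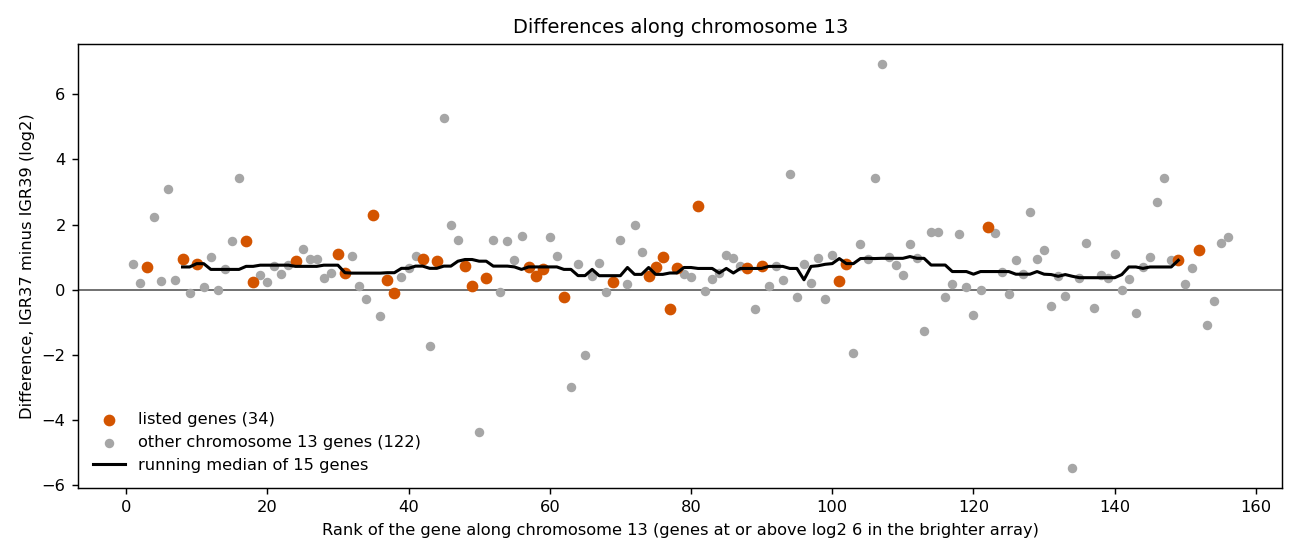
Difference, IGR37 minus IGR39 (log2), of the 156 chromosome 13 genes whose brighter array reached log2 6, by rank along the chromosome; coloured points are the 34 genes of the list, grey points the 122 others, and the line is the median of 15 neighbours. The line stays between 0.30 and 1.01, while single genes outside the list reach -5.48 and 6.93.

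Other chromosomes differed in their medians. Over all its 156 genes at this level, chromosome 13 had a median of 0.69 with 80.1% above 0, the highest but 1 of the 22 autosomes and X. Chromosome 18 was above it, with a median of 0.95 over 116 genes and 86.2% above 0, and chromosome 15 below it, with 0.50 over 298 genes. Chromosome 10 lay at the other end, with a median of -0.50 over 318 genes and 22.01% above 0. At least 2-fold higher were 28.8% of genes on chromosome 13, 48.3% on chromosome 18 and 5.97% on chromosome 10. The 8331 genes of the other autosomes and X together had a median of 0.062. Genes of a chromosome share the arrays, and with 1 array per line none of these differences between chromosomes was tested.

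**Figure D4:**
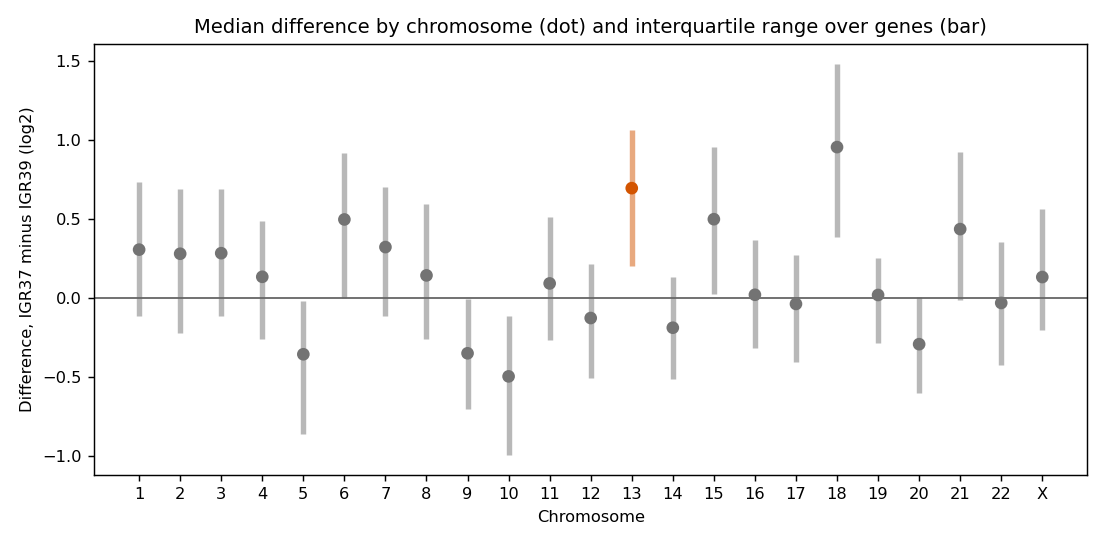
Median difference, IGR37 minus IGR39 (log2), over the genes of each chromosome whose brighter array reached log2 6; bars run from the lower to the upper quartile over genes and are not errors. Chromosome 13, coloured, has a median of 0.69, between chromosome 18 at 0.95 and chromosome 15 at 0.50.

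Many genes of the list encode subunits whose partners are encoded elsewhere. From general knowledge, 129 genes on other chromosomes that act in the same complex or step were listed as partners for 23 of the genes. They include relatives of a gene, such as TFDP2, CUL4B, PDS5A and SUCLG2, which need not bind it. Of the 129 partners, 124 were measured and 110 reached log2 6. Their median difference was 0.18, and -0.0035 after the arrays were centred on housekeeping genes, a scaling under which the list kept a median of 0.51. Among the 110, 70 were above 0 (all genes 54.5%), 5 were at least 2-fold higher (all genes 11.4%) and 2 were at least 2-fold lower (all genes 9.5%). For 18 genes of the list, both the gene and at least 1 partner reached this level, and in all 18 the gene's difference was above the median of its partners. The gap ran as narrow as 0.70 against 0.65 for SUCLA2, and single partners exceeded the gene in several sets. The count used 1 probe set per gene and was not repeated with others. It leaves out RNASEH2B, which did not reach log2 6 and lay below the median of its partners, at 0.21 against 0.35. CAB39L and KBTBD7, left out for the same reason, lay above theirs. For ZMYM2, the mean over all its probe sets was 0.07, below its partner KDM1A at 0.35 on the probe set used. The genes of the list were chosen on these values, so the count of 18 is a description.

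The RB1 and E2F group showed unequal members. The partners of RB1 had a median of 0.071, with RBL2, a relative of RB1, at 7.01 in IGR37 and 6.73 in IGR39 and E2F1 at 7.51 and 7.79. E2F3 differed most, at 7.15 and 6.42. TFDP2, the relative of TFDP1, was at 6.93 and 6.38, a difference of 0.54, against 1.21 for TFDP1. E2F6 was at 7.01 and 6.14, a difference of 0.87. E2F7, a repressive E2F, was at 7.47 and 8.37.

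Of the ubiquitin ligase subunits, CUL4B, the relative of CUL4A on chromosome X, was lower in IGR37, at 7.88 in IGR37 and 9.08 in IGR39. Its difference of -1.20 stands against 0.92 for CUL4A. DDB1, the adaptor of both, was at 9.74 and 8.89, and RBX1, the RING subunit, at 9.85 and 10.12. CUL4A thus went with DDB1, and CUL4B and RBX1 the other way.

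Mediator partners were spread widely. The 15 measured partners of MED4 at this level had a median of -0.054, from -1.09 for MED16 to 1.40 for MED28. In the kinase module, CCNC, the cyclin of CDK8, was at 9.55 in IGR37 and 8.34 in IGR39, and MED12 at 6.94 and 5.86. MED13 and MED13L, of the same module, differed by -0.71 and -0.63. CDK19, the relative of CDK8, was at 6.53 and 6.28.

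The clamp loader subunits differed among themselves. RFC5 differed by 0.87, RFC2 by 0.71 and RFC4 by 0.47, while RFC1, the large subunit, differed by -0.17, with RFC3 itself at 0.87. Of the genes listed with SUCLA2, SUCLG1 differed by 0.59 and SUCLG2, a relative of SUCLA2, by 0.71, against 0.70 for SUCLA2. The ESCRT-II partners of VPS36, SNF8 and VPS25, differed by 0.23 and 0.096, against 0.71 for VPS36. The relatives PDS5A and NAA15 differed by -0.12 and -0.041, against 0.93 for PDS5B and 0.62 for NAA16. The value of PDS5B rests on 1 bright _x_at probe set, and the mean over its 6 probe sets was 0.13.

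Partners past 2-fold that remain to be named are POLR1B, a core subunit of RNA polymerase I, at 7.42 in IGR37 and 6.35 in IGR39, and STRADB, a pseudokinase that binds LKB1, at 9.92 and 8.05. RNASEH2A and RNASEH2C, the partners of RNASEH2B, differed by 0.18 and 0.52, against 0.21 for RNASEH2B. For the BRCA2 partners PALB2, BRCA1 and SEM1, the differences were -0.035, 0.074 and 0.65.

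**Figure D5:**
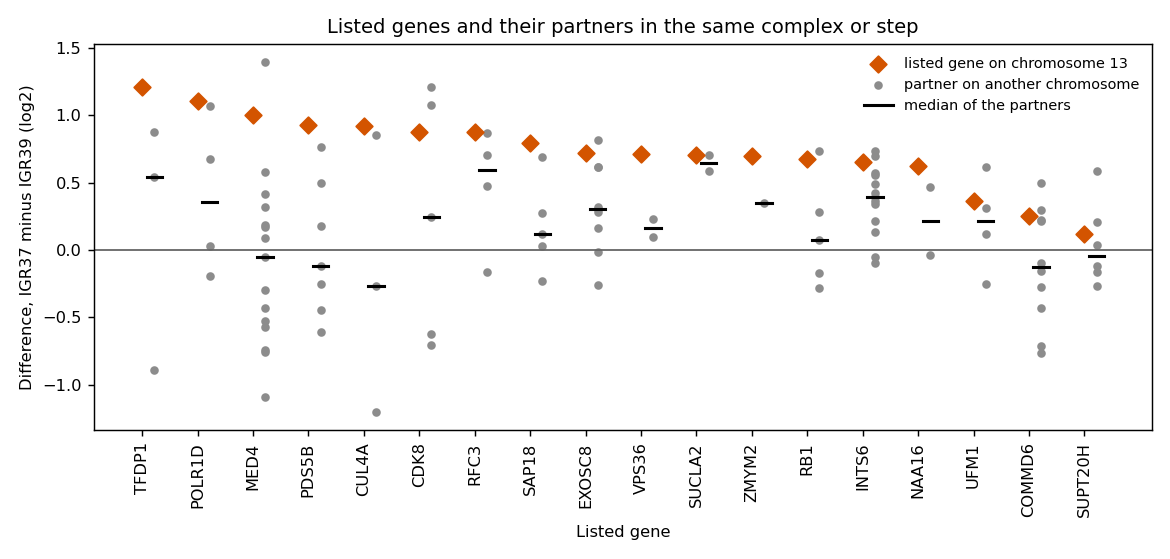
Difference, IGR37 minus IGR39 (log2), of 18 genes of the list (diamonds, left) and of their listed partners on other chromosomes (grey points, right) with the partners' median (bar), for genes whose brighter array reached log2 6. The listed partners include relatives of the gene. Every diamond lies above its bar, for example RFC3 at 0.87 over 0.59 and SUPT20H at 0.12 over -0.043. RNASEH2B, which lay below the median of its partners, did not reach log2 6 and is not shown.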

How the data were processed

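The authors deposited log2 values for each probe set. The submitters' processing notes name RMA and affy, without a version. RMA adjusts background, equalises the arrays' distributions and summarises probes, which removes overall brightness differences and compresses low levels. The number of arrays limits the precision.

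Of 54675 probe sets, 41091 had 1 gene symbol in the platform annotation, 1801 several, 11721 none and 62 were controls. Only those with 1 symbol were used. Symbols, chromosomes and gene order came from a RefSeq table of GRCh38.p14, since the arrays carry no coordinates. A gene's value was its probe set of highest mean, and the minimum was log2 6 in the brighter array. No test was run.

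All 43 genes of the list were to be named, with the 5 largest differences each way among other chromosome 13 genes, partners past 2-fold and the partners of RB1, RFC3, RNASEH2B, SUCLA2, VPS36, BRCA2 and CUL4A, and cell type markers. PDS5A, NAA15, CDK19, TFDP2, E2F6, E2F7, TNFRSF19, MED13 and MED13L were named after their values were seen. The list, the partners and 8 of the alternatives were chosen with earlier results of these data known, and 2 more were added after seeing the data. The calculation was tested on simulated data. Python 3.11.15, numpy 2.4.6, pandas 2.3.3, statsmodels 0.14.6 and matplotlib 3.10.9 were used.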

Additional observations from a re-analysis of the deposited data

How the results depend on the processing

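The 5 summary values were recomputed under 10 alternatives. Of 50 recomputed values, 43 moved by less than the spike-in SD of 0.08 or, for counts, by at most 1.5 times. They share the arrays and the list, so they are not separate checks. Single genes moved past that SD in 26 of 41 under the mean of all probe sets. Without _x_at and _s_at probe sets 8 of 34 did, and with a trend by level removed 15 of 41. Centring on array medians moved 0 of 41, and centring on housekeeping genes shifted all 41 alike. Centring on housekeeping genes moved the median of all genes to -0.12. It gave 0.51 for the list, 0.46 for the other chromosome 13 genes and -0.0035 for the partners, whose sign turned by that construction. The other chromosome 13 genes also moved to 0.47 once _x_at and _s_at probe sets were left out, to 0.53 at a minimum of log2 5, to 0.087 with no minimum and to 0.47 at a minimum of log2 6 in both arrays. The cause of these moves was not tested. At least 2-fold higher were 5 to 9 genes of the list under all 10, and 0 were lower. The genes of the list counted ranged from 23, under the mean of all probe sets, to 41 with no minimum. The share of all genes at least 2-fold higher was 5.8% with no minimum and 7.26% at log2 6 in both arrays. No such share stands beside the other alternatives, so the counts are a description. Single genes changed sign with the probe sets used: AKAP11, USPL1 and WBP4 under the mean of all probe sets, and PDS5B, SUPT20H and ZMYM2 once those suffixes were left out. Centring on housekeeping genes turned SUPT20H. No paired analysis was possible because each line has 1 array. Levels near background limit FOXO1, RCBTB2, CAB39L, KBTBD7, MTRF1, NBEA and RNASEH2B.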
